A study of Homo sapiens with 3 samples.

Results

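NRF2, the transcription factor encoded by NFE2L2, and 36 other genes of antioxidant defence were compared between drug-resistant breast cancer cells and the cells they came from. These 37 genes were taken by symbol from the deposited table of 46427 genes, and all 37 were found. MM468 is MDA-MB-468, an established triple-negative breast cancer line labelled epithelial. The 3 lines were sequenced, with 1 RNA library each: untreated wild type parental MM468, cells that survived adriamycin (doxorubicin) at 10 to 140 nM, and cells that survived paclitaxel at 2 to 320 nM (MM468/PR). All were labelled wild type in genotype and grown in the same medium. Whether drug was present at harvest, and whether a resistant line came from 1 clone, is not given in the sources used here. The libraries held 32704885, 47567927 and 43242628 counts in parental, adriamycin-resistant and MM468/PR cells.

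The NRF2 protein is held in the cytoplasm by KEAP1, which marks it for degradation. When reactive cysteines of KEAP1 are modified by oxidants or electrophiles, NRF2 escapes, enters the nucleus, pairs with a small MAF protein and binds antioxidant response elements of its target genes. These genes make and recycle glutathione and thioredoxin and supply the NADPH on which both depend, and peroxiredoxins, glutathione peroxidases and catalase use this chemistry to remove peroxides. Most of this control acts on the NRF2 protein, which RNA counts do not measure.

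With 1 library per line no test was possible, and no value below has a replicate error. Counts were scaled by TMM, which sets the bulk of genes in 2 libraries equal, and a difference of at least 2-fold is used as a size threshold only. Each interval in parentheses is a 95% range for a fold, from the exact binomial distribution of its 2 counts, and covers counting error alone. Levels of different genes are compared only as TPM, which is corrected for gene length. In bulk RNA, a smaller number of cells expressing a gene and less RNA per cell cannot be told apart. Both resistant lines were set against the same parental library, so their values are given side by side.

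The labelled cell type was checked first. The 5 epithelial markers summed to 6265, 7088 and 6416 TPM in parental, adriamycin-resistant and MM468/PR cells. Among them KRT8 stood at 2032, 2348 and 2436 TPM, KRT19 at 2252, 2500 and 1438 TPM and EPCAM at 565, 469 and 788 TPM. EGFR, which this line is known to overexpress, stood at 1152, 1218 and 1288 TPM. Of the receptors that define triple-negative disease, PGR had 0, 0 and 7 counts, ESR1 152, 335 and 161 counts, and ERBB2 2204, 3597 and 2405 counts or 32.3, 34.6 and 28.1 TPM. COL1A2 of fibroblasts had 0 counts in every library. The 4 leukocyte markers summed to 779, 96 and 59 counts, of which CD14 gave 755, 94 and 15, and the 4 fibroblast markers to 661, 1636 and 841 counts, of which COL1A1 gave 659, 1629 and 820. The part of these markers in the results was not tested.

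Antioxidant response elements share the core TGACNNNGC, which was searched on both strands from 250 bases before to 50 bases after each transcript start in RefSeq GRCh38.p14. A window was found for 29 members, and 8 of these (27.6%) held the core, beside 16.1% of the 27305 genes with a window. A gene can have more than 1 window, which raises its share. By window, 9 of the members' 45 (20%) held the core, beside 13.35% of all 35116. The sites of TXNRD1, KEAP1 and GPX2 are shown because these are the 3 members with a core whose counts were at least 2-fold from parental in a resistant line, and that of GCLM because its counts were not. Each line reads 5′ to 3′ along the gene, with the core in capitals in either orientation and 10 bases on each side. Their positions are chr12:104215670-104215698, chr12:104215761-104215789 and chr12:104286920-104286948 on the plus strand for TXNRD1, and, on the minus strand, chr19:10502807-10502835 and chr19:10502784-10502812 for KEAP1, chr14:64942849-64942877 for GPX2 and chr1:93909446-93909474 for GCLM.
TXNRD1 site 1: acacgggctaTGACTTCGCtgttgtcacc
TXNRD1 site 2: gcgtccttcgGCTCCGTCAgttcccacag
TXNRD1 site 3: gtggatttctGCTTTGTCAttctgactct
KEAP1 site 1: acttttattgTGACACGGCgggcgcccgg
KEAP1 site 2: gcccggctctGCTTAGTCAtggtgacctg
GPX2 site: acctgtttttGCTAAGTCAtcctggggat
GCLM site: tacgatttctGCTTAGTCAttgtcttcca
Both KEAP1 sites lie in 1 window, and the third TXNRD1 site lies at a second, downstream start. The other members with a core were SLC3A2, ME1, PIR and PGD. A match describes letters only, and none of these data measure binding of NRF2.

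Against parental MM468, 35 of the 37 members had the 10 counts in 1 of the 2 libraries needed for a comparison. In adriamycin-resistant cells 3 of these 35 were past 2-fold upward (HMOX1, TXNRD1 and GPX2), beside 10.9% of all genes compared, and 0 downward, beside 11.4%. MM468/PR cells had 2 members at least 2-fold higher (TXN and GPX2), beside 20.5% of all genes, and 7 at least 2-fold lower (NFE2L2, KEAP1, GSR, TXN2, GPX8, CAT and TALDO1), beside 13.5%. Set directly against adriamycin-resistant cells, MM468/PR cells had 1 member at least 2-fold higher (TXN), beside 19.4%, and 7 at least 2-fold lower (KEAP1, HMOX1, GSR, TXNRD2, PRDX3, PRDX5 and TALDO1), beside 14.0%. GPX2, with 0 parental counts, passed the minimum only through the resistant libraries where it was counted, so with a minimum of 100 counts 2 members were higher in adriamycin-resistant and 1 in MM468/PR cells. With the scaling refitted at that minimum, 3 of the 7 members stayed past 2-fold lower in MM468/PR against parental cells, 8.82% of 34 members beside 11.5% of all genes. Between the resistant lines 6 of the 7 did, 17.6% beside 11.6%. With the minimum of 10 counts, as shares of the 35 members, the lower genes in both MM468/PR comparisons came to 20%. All but 1 of the 35 had 100 or more counts, a level at which fewer of all genes passed 2-fold. With the scaling not refitted, the shares of all genes higher and lower there were 6.17% and 7.95% in adriamycin-resistant cells, 11.6% and 12.8% in MM468/PR cells, and 11.3% and 13.3% between the resistant lines.

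The median log2 fold change of the members was -0.01 in adriamycin-resistant cells, beside 0.02 over all genes compared. In MM468/PR cells it was -0.36 against parental, beside 0.07 over all genes, and -0.58 against adriamycin-resistant cells, beside 0.04. Over all genes with 100 or more counts the 3 medians were 0.01, -0.04 and -0.07. The size of the MM468/PR differences depended on scaling. With library size alone the median of all genes in MM468/PR against parental cells moved up by 0.23 and with TPM by 0.20, and 2 and 1 members in place of 7 were at least 2-fold lower. These are 5.71% and 2.86% of the 35 members, beside 10.0% and 5.52% of all genes, so the members' share was above that of all genes with TMM and below it with library size alone or TPM. Counted from the median of all genes instead, 8 members were at least 2-fold lower with TMM and 8 with library size alone. With TPM there were 4 and with FPKM 2. With TMM, 14% of all genes had a log2 fold change of -0.98 or less and 15% of -0.92 or less, beside their median of 0.07. For the other scalings the share of all genes at that distance below their median is not given, so those counts have no background beside them. Relative to the median of all genes, the members' median was 0.43 lower on the log2 scale with TMM, 0.43 lower with library size alone, 0.30 lower with TPM and 0.26 lower with FPKM. Below the median of all genes stood 27 members with TMM, 27 with library size alone, 26 with TPM and 24 with FPKM, of 35. The TPM values of this paragraph up to here use a pseudocount of 1. With TPM at a pseudocount of 0.1, 8 members were at least 2-fold below the median of all genes. The members' median was then 0.42 lower, and 27 members stood below the median of all genes. Between MM468/PR and parental cells, TALDO1 alone was past 2-fold lower under every scaling tried. Between the resistant lines HMOX1 and GSR were, while TALDO1, TXNRD2, PRDX3 and PRDX5 were under 2-fold with library size alone, TPM or FPKM, and KEAP1 with TPM or FPKM.

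**Figure D1:**
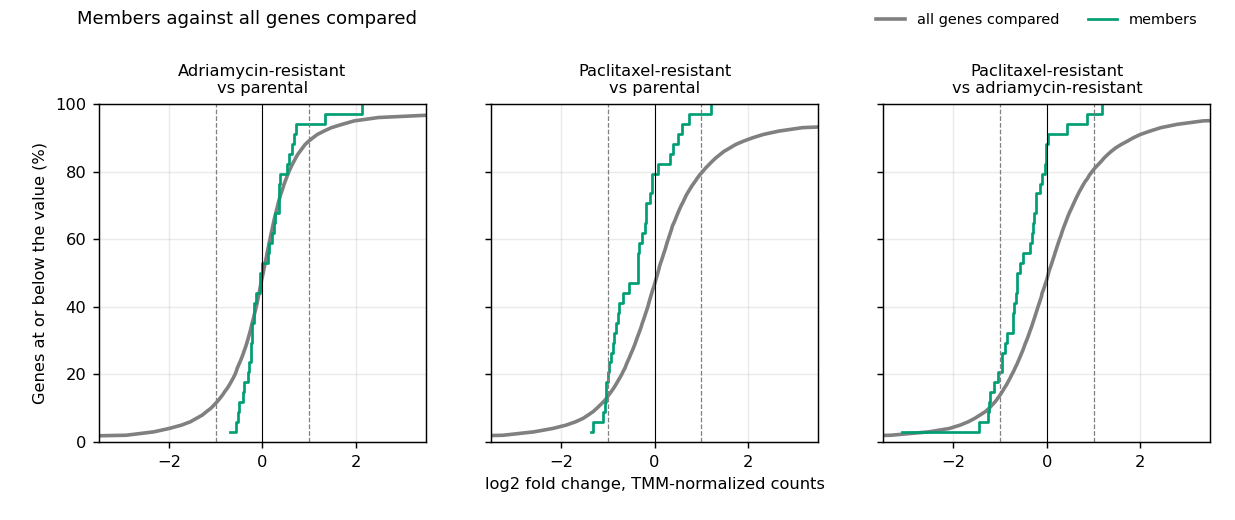
Cumulative share of genes (y axis, %) at or below each log2 fold change of TMM-normalized counts (x axis) in the 3 comparisons, for all genes compared (grey, drawn from the 1st to the 99th percentile) and for the members other than GPX2 (green), with dashed lines at 2-fold. The curves lie close together in adriamycin-resistant cells (median -0.01 over all 35 members compared and 0.02), and the members' curve lies to the left in both MM468/PR panels (median -0.36 and 0.07, then -0.58 and 0.04).

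NFE2L2 (chr2:177230303-177264727) had 5230 counts in parental, 5205 in adriamycin-resistant and 3932 in MM468/PR cells. Its level in TPM was 131, 92.0 and 77.9. It was 1.48-fold lower in adriamycin-resistant cells (1.42 to 1.54) and 2.06-fold lower in MM468/PR cells (1.97 to 2.15), so parental cells were highest. KEAP1 (chr19:10486125-10503356), its inhibitor, had 6953, 11092 and 4971 counts in the same order. It was 1.08-fold higher in adriamycin-resistant cells (1.05 to 1.12) and 2.16-fold lower in MM468/PR cells (2.09 to 2.25), where it stood 2.41-fold below adriamycin-resistant cells (2.33 to 2.49). With library size alone NFE2L2 and KEAP1 had log2 fold changes of -0.81 and -0.89 in MM468/PR cells, under the 2-fold threshold.

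SQSTM1, which encodes p62, a cargo receptor of autophagy that binds KEAP1, was the most abundant of these 3 regulators in each library. It had 13575, 30944 and 27735 counts, and was 1.55-fold higher in adriamycin-resistant cells (1.52 to 1.58) and 1.32-fold higher in MM468/PR cells (1.29 to 1.35). Its locus overlaps MGAT4B, which had 9664, 16665 and 13331 counts, and no source used here says whether strand was used in counting.

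**Figure D2:**
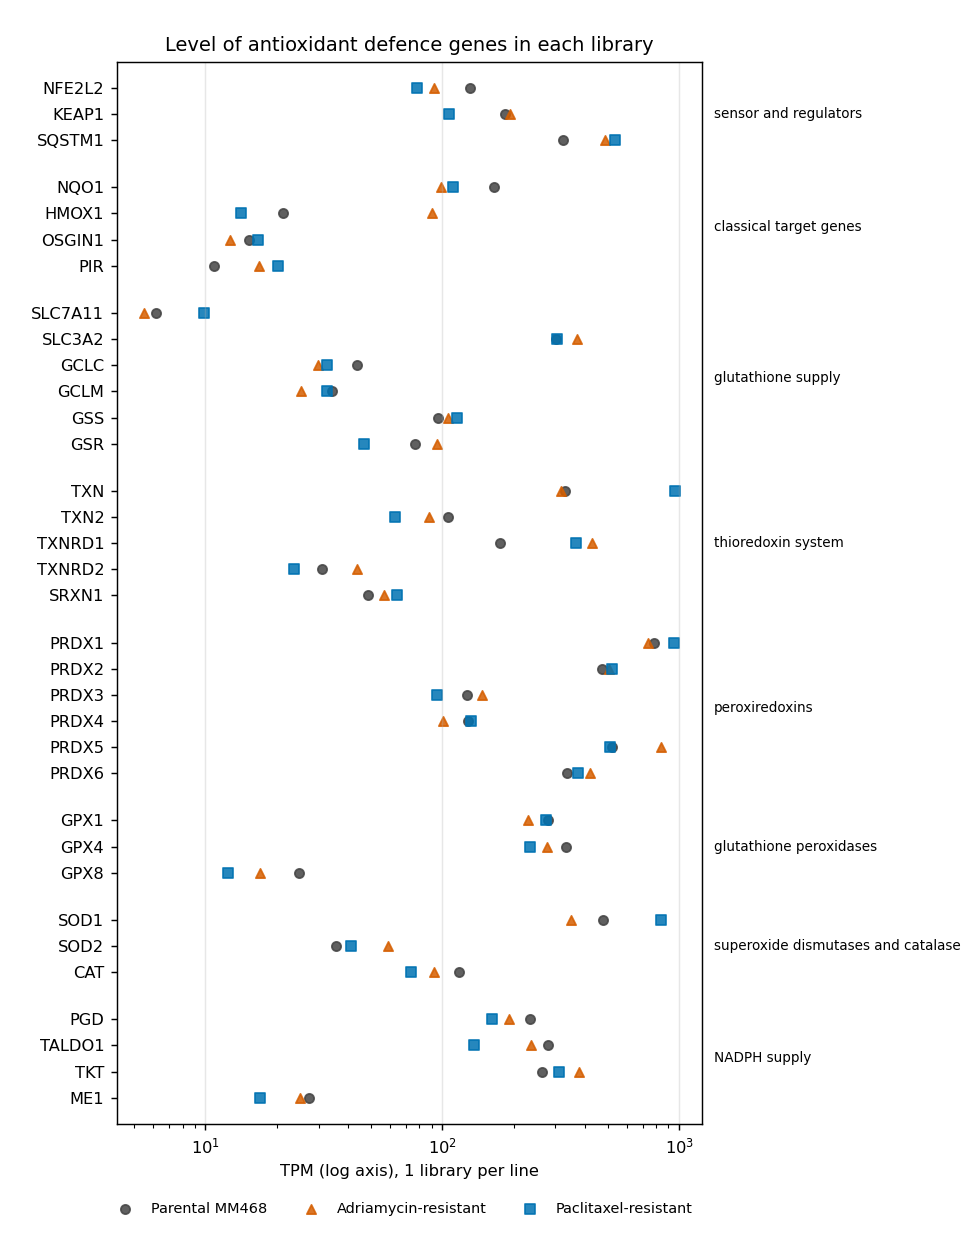
Level of each member in TPM (x axis, log scale) in the single library of parental (grey circles), adriamycin-resistant (orange triangles) and MM468/PR cells (blue squares), by role. HMOX1 stands apart in the adriamycin-resistant library (90.6 TPM against 21.3 in parental) and TXN in the MM468/PR library (963 TPM against 331). TXNIP, GPX2 and GPX3, all under 1 TPM in every library, are left out.

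Of HMOX1, NQO1, PIR and OSGIN1, grouped here as classical target genes outside the glutathione and thioredoxin systems, only HMOX1 passed 2-fold against parental cells. HMOX1 (chr22:35381096-35394207) encodes heme oxygenase 1, which breaks down heme to biliverdin, iron and carbon monoxide. It had 490 counts in parental, 3168 in adriamycin-resistant and 399 in MM468/PR cells. HMOX1 was therefore 4.39-fold higher in adriamycin-resistant cells (3.99 to 4.84) and 1.90-fold lower in MM468/PR cells (1.66 to 2.17), and the resistant lines differed 8.56-fold (7.71 to 9.52). Of all genes compared, 95.5% had a lower log2 fold change in adriamycin-resistant cells, and 2.25% had a lower one between the resistant lines.

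NQO1, a quinone reductase often used as a readout of NRF2 activity, was the most abundant target gene of this group, with 6102, 5549 and 5062 counts. It was 1.62-fold lower in adriamycin-resistant cells (1.56 to 1.68) and 1.87-fold lower in MM468/PR cells (1.80 to 1.94). HMOX1 and NQO1 thus differed in sign in adriamycin-resistant cells. PIR, an iron-binding nuclear protein, was 1.59-fold (1.35 to 1.88) and 1.51-fold higher (1.28 to 1.78) in the 2 lines, and the log2 fold changes of OSGIN1 were -0.22 and -0.20, the second turning in sign with library size alone, TPM and FPKM.

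Glutathione supply starts with cystine import by SLC7A11, whose partner SLC3A2 carries the transporter to the membrane. SLC3A2 was the most abundant gene of this group, with 8824, 16729 and 10884 counts. It was 1.29-fold higher in adriamycin-resistant cells (1.26 to 1.32) and had a log2 fold change of -0.33 in MM468/PR cells, whose sign turned with some scalings. SLC7A11, at 6.17, 5.48 and 9.87 TPM, was the least abundant gene of the group and had log2 fold changes of -0.14 and 0.34. Both subunits of glutamate-cysteine ligase, which catalyses the rate-limiting step of glutathione synthesis, were below parental in both lines. The catalytic subunit GCLC had log2 fold changes of -0.52 and -0.79, and the modifier GCLM -0.42 and -0.36. None of these passed 2-fold.

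GSR reduces oxidized glutathione with NADPH. GSR had 3434 counts in parental, 6515 in adriamycin-resistant and 2579 in MM468/PR cells. It was 1.29-fold higher in adriamycin-resistant cells (1.24 to 1.34) and 2.06-fold lower in MM468/PR cells (1.96 to 2.17), and the resistant lines differed 2.72-fold (2.60 to 2.85). The difference between the resistant lines was past 2-fold under every scaling tried, while that between MM468/PR and parental cells was not.

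TXN and TXNRD1 of the thioredoxin system were the most abundant of the members past 2-fold upward. TXN (chr9:110243810-110256507), the cytosolic thioredoxin that reduces protein disulfides, had 3603 counts in parental, 5271 in adriamycin-resistant and 12921 in MM468/PR cells. At 963 TPM it was the most abundant member in MM468/PR cells and the 109th of all genes, where it had been the 378th in parental cells at 331 TPM. It was 2.32-fold higher in MM468/PR than in parental cells (2.23 to 2.41) and 2.27-fold higher than in adriamycin-resistant cells. In adriamycin-resistant cells its log2 fold change was -0.01, with a sign that turned under 3 alternatives.

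TXNRD1 (chr12:104215779-104350307), the selenoprotein that reduces cytosolic thioredoxin, had 9533, 35633 and 24763 counts. It was 2.54-fold higher in adriamycin-resistant cells (2.48 to 2.60) and 1.68-fold higher in MM468/PR cells (1.64 to 1.72). In both resistant libraries TXNRD1 was thus above parental, while TXN was close to parental in adriamycin-resistant cells. The pseudogene RPL18AP3 overlaps its locus with 356, 865 and 297 counts. SRXN1, which reactivates overoxidized peroxiredoxins, had log2 fold changes of 0.28 and 0.07. TXNIP, which binds and inhibits thioredoxin, was listed at 0 counts in all 3 libraries, where 3 counts would be a CPM of 0.0917, 0.0631 and 0.0694, and whether its reads were lost in counting was not tested.

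TXN2, the mitochondrial thioredoxin, had 2090, 2704 and 1558 counts, and was 1.14-fold lower in adriamycin-resistant cells (1.07 to 1.20) and 2.08-fold lower in MM468/PR cells (1.94 to 2.22). TXNRD2, its reductase, had 959, 2047 and 936 counts. TXNRD2 was 1.45-fold higher in adriamycin-resistant cells (1.34 to 1.57) and 1.59-fold lower in MM468/PR cells (1.45 to 1.74), a 2.36-fold difference between the resistant lines (2.18 to 2.55).

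**Figure D3:**
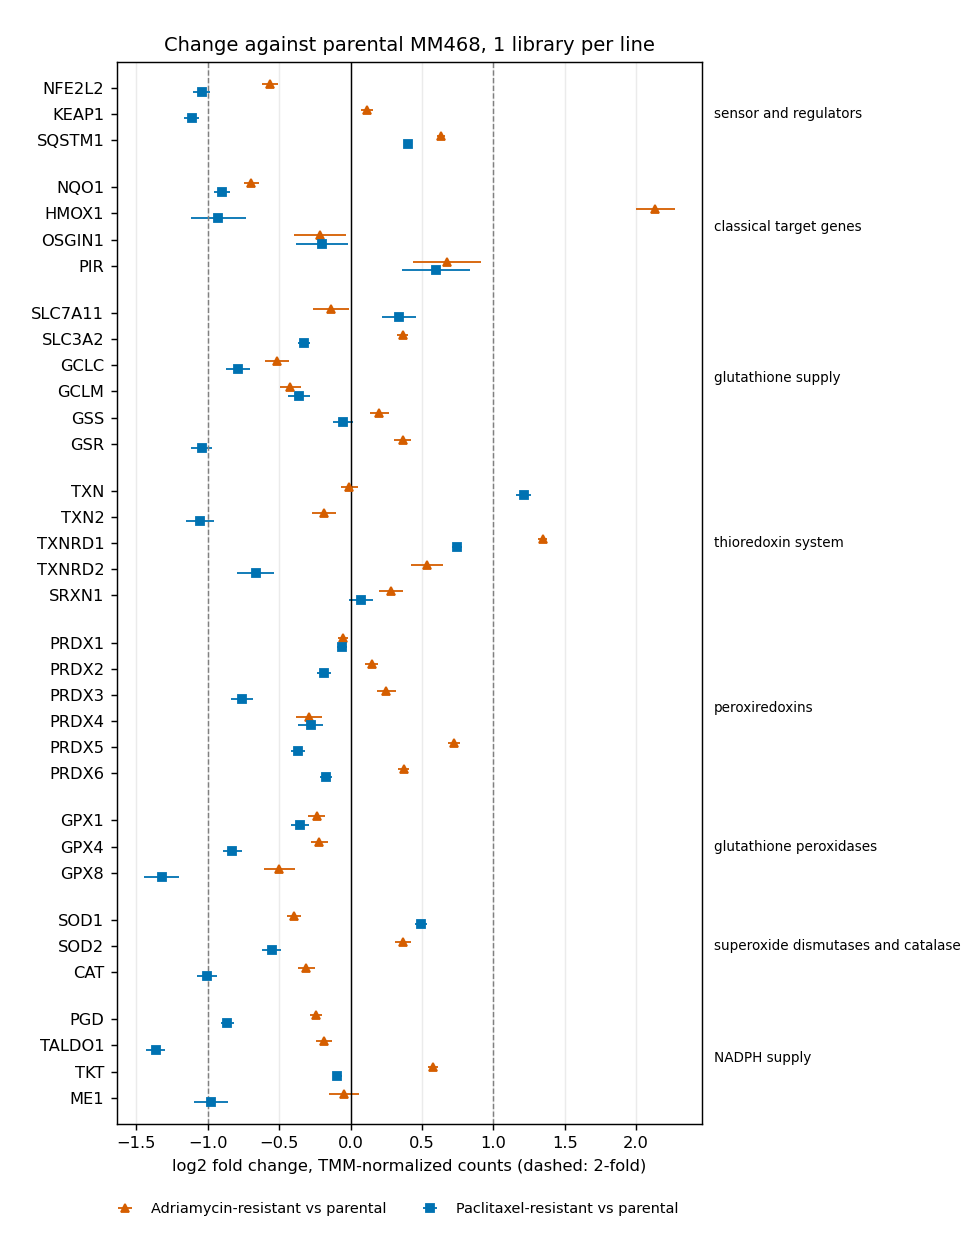
log2 fold change of TMM-normalized counts against parental MM468 (x axis) for 34 members by role, in adriamycin-resistant (orange triangles) and MM468/PR cells (blue squares), with exact binomial 95% intervals that cover counting error only and dashed lines at 2-fold. HMOX1 (2.13) and TXNRD1 (1.34) lie past 2-fold in adriamycin-resistant cells and TXN (1.21) in MM468/PR cells, where most other members lie below 0. GPX2, TXNIP and GPX3, with 0 parental counts, are left out.

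Peroxiredoxins, which reduce peroxides with thioredoxin as the usual donor, were the most abundant group, with summed levels of 2364, 2746 and 2580 TPM. PRDX1, cytosolic and the most abundant member of all in parental cells, had 11210, 15894 and 16608 counts. Its log2 fold changes were -0.05 and -0.06, the second turning in sign under 4 alternatives. PRDX5 had 6163 counts in parental, 14962 in adriamycin-resistant and 7406 in MM468/PR cells, and led the members in adriamycin-resistant cells at 836 TPM. It was 1.65-fold higher there (1.60 to 1.70) and 1.29-fold lower in MM468/PR cells (1.24 to 1.33), a 2.18-fold difference between the resistant lines (2.12 to 2.24). Its locus overlaps TRMT112, with 2753, 5460 and 3903 counts.

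PRDX3, the peroxiredoxin of mitochondria, had 2919, 5115 and 2670 counts. It was 1.19-fold higher in adriamycin-resistant cells (1.14 to 1.25) and 1.69-fold lower in MM468/PR cells (1.60 to 1.78), and the resistant lines differed 2.06-fold (1.97 to 2.16). The other peroxiredoxins, PRDX2, PRDX4 and PRDX6, ranged from -0.29 to 0.37 on the log2 scale in adriamycin-resistant cells and from -0.28 to -0.17 in MM468/PR cells, the latter with signs that turned under some scalings.

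Glutathione peroxidases summed to 637 TPM in parental, 524 in adriamycin-resistant and 522 in MM468/PR cells. GPX4, which reduces lipid peroxides in membranes and guards against ferroptosis, was the most abundant of them in parental cells, with 3902, 4938 and 3401 counts. It was 1.16-fold lower in adriamycin-resistant cells (1.11 to 1.21) and 1.78-fold lower in MM468/PR cells (1.70 to 1.86). GPX8, a peroxidase of the endoplasmic reticulum, had 1364, 1421 and 843 counts. GPX8 was 1.41-fold lower (1.31 to 1.52) and 2.50-fold lower (2.30 to 2.73), so MM468/PR cells were lowest for both genes. GPX2, known from the gut epithelium, had 0, 10 and 14 counts, at least 2.26-fold higher in adriamycin-resistant and at least 3.02-fold higher in MM468/PR cells against a floor of 3 counts, though its counting intervals start at 1.52-fold and 2.14-fold. GPX3 had 0, 0 and 2 counts and was not compared, and GPX1 had log2 fold changes of -0.24 and -0.35.

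SOD1, the copper-zinc superoxide dismutase of the cytosol, had 6295 counts in parental, 7050 in adriamycin-resistant and 13696 in MM468/PR cells. It was 1.31-fold lower in adriamycin-resistant cells (1.27 to 1.36) and 1.41-fold higher in MM468/PR cells (1.36 to 1.45). SOD2, the manganese enzyme of mitochondria, went the other way in adriamycin-resistant cells, 1.29-fold higher (1.24 to 1.34). Its log2 fold change in MM468/PR cells was -0.55, with a sign that turned in TPM and FPKM, and it overlaps WTAP and ACAT2, both with over 2000 counts in every library. CAT, which breaks down hydrogen peroxide in peroxisomes, had 3994, 4741 and 3079 counts. CAT was 1.24-fold lower in adriamycin-resistant cells (1.19 to 1.29) and 2.01-fold lower in MM468/PR cells (1.91 to 2.10), just past the threshold.

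The 4 last members, grouped here as NADPH supply, are 3 enzymes of the pentose phosphate pathway and malic enzyme. Only PGD and ME1 make NADPH themselves. The summed level of the 4 was 805, 832 and 625 TPM, most of it from TALDO1 and TKT, so it is not a measure of NADPH production. TALDO1, transaldolase, had 4958, 6410 and 2981 counts. It was 1.14-fold lower in adriamycin-resistant cells (1.10 to 1.18), 2.57-fold lower in MM468/PR cells (2.46 to 2.69) and 2.32-fold lower in MM468/PR than in adriamycin-resistant cells (2.22 to 2.42). TKT, transketolase and the most abundant of the 4 in both resistant libraries, had 11453, 25158 and 16629 counts. TKT was 1.49-fold higher in adriamycin-resistant cells (1.46 to 1.53), and its log2 fold change of -0.09 in MM468/PR cells turned in sign under some scalings. PGD, an NADPH-producing dehydrogenase, had log2 fold changes of -0.24 and -0.86, and ME1 of -0.05 and -0.98.

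**Figure D4:**
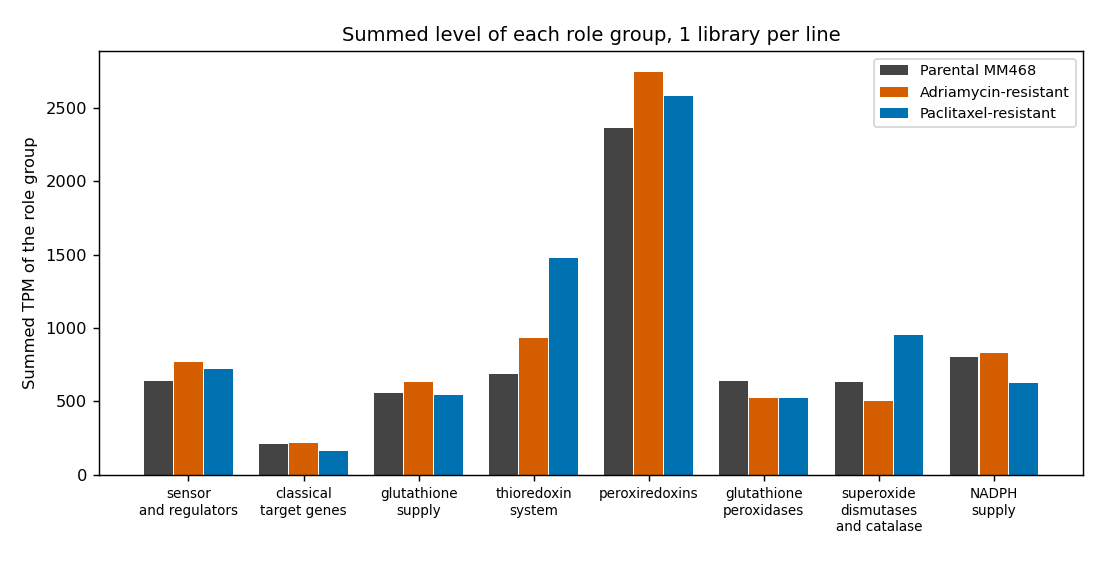
Summed TPM of the members of each role group (y axis) in the single library of parental (grey), adriamycin-resistant (orange) and MM468/PR cells (blue). The thioredoxin system goes from 690 TPM in parental to 934 in adriamycin-resistant and 1480 in MM468/PR cells, and the superoxide dismutases with catalase from 629 to 501 and 955. In MM468/PR cells these sums follow TXN and TXNRD1, and SOD1, while TXN2 and TXNRD2 (63.1 and 23.7 TPM, from 105 and 31.0) and CAT (73.8 TPM, from 118) were lower.

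The ratio of 2 genes' counts within a library does not depend on how libraries are scaled. In all, 7 pairs were compared in this way, chosen after their values were seen. In MM468/PR against parental cells the ratio of TXN to TXN2 was 4.81-fold higher (4.46 to 5.19), that of TXNRD1 to TXNRD2 2.66-fold (2.42 to 2.92), that of SOD1 to SOD2 2.06-fold (1.95 to 2.18) and that of PRDX1 to PRDX3 1.62-fold (1.53 to 1.72). In each of these 4 pairs the first gene encodes the cytosolic and the second the mitochondrial enzyme. In adriamycin-resistant cells the first 2 ratios were 1.13-fold (1.05 to 1.21) and 1.75-fold higher (1.61 to 1.90), while the ratios of SOD1 to SOD2 and PRDX1 to PRDX3 stood at 0.590 (0.560 to 0.622) and 0.809 (0.768 to 0.852) times parental. Between these lines the balance of cytosolic and mitochondrial forms thus differed in direction for 2 of 4 pairs. The size for SOD1 to SOD2 depended on the measure. In TPM this ratio was 13.4 in parental, 5.95 in adriamycin-resistant and 20.4 in MM468/PR cells. That is a larger fall and a smaller rise than in counts, outside the counting intervals.

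The ratio of NFE2L2 to KEAP1 was 0.624 times parental in adriamycin-resistant cells (0.594 to 0.655) and 1.05 times in MM468/PR cells (0.995 to 1.11), the latter within counting error of no change. For GCLM to GCLC it was 1.07 (0.988 to 1.15) and 1.35 times parental (1.25 to 1.46). The 2 chains of the cystine transporter, SLC7A11 to SLC3A2, stood at 0.706 (0.644 to 0.774) and 1.59 times parental (1.45 to 1.73).

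**Figure D5:**
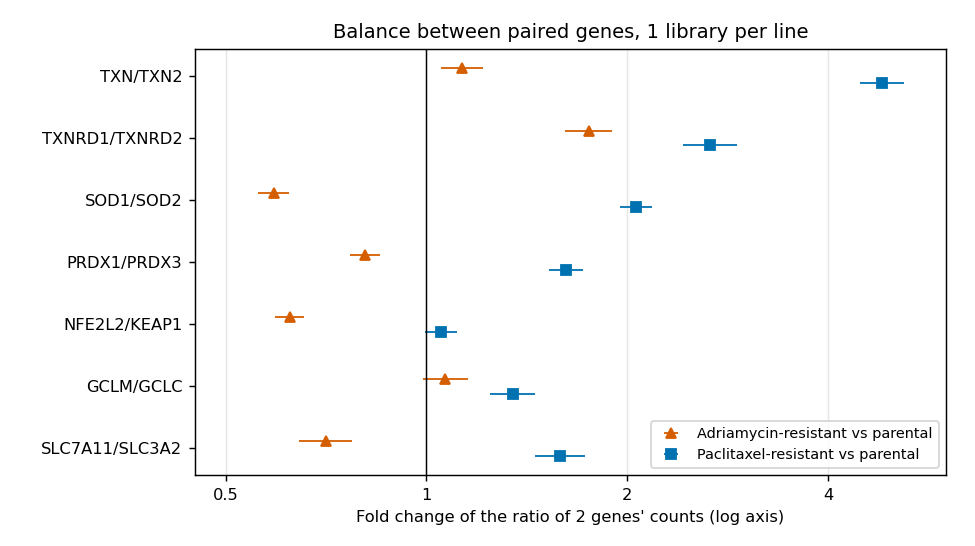
Fold change against parental MM468 of the ratio of 2 genes' counts (x axis, log scale) in adriamycin-resistant (orange triangles) and MM468/PR cells (blue squares), with exact 95% intervals that cover counting error only. All 4 cytosolic to mitochondrial pairs at the top lie above 1 in MM468/PR cells, up to 4.81 for TXN/TXN2, and 2 of them lie below 1 in adriamycin-resistant cells. For SOD1/SOD2 the TPM ratio was 13.4, 5.95 and 20.4 in parental, adriamycin-resistant and MM468/PR cells, a smaller rise and a larger fall than in counts.

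Genes around the members were counted in lists, with TMM scaling. They are to be read beside the shares of all genes past 2-fold upward and downward. These shares were 10.9% and 11.4% in adriamycin-resistant and 20.5% and 13.5% in MM468/PR cells. Of 22 regulators and partners of NRF2, none was past 2-fold upward in either line. Past it downward were 2 (9.09%) in adriamycin-resistant and 4 (18.2%) in MM468/PR cells. Among those 4, RBX1 stood at 106 TPM in parental and 65.4 in MM468/PR cells, and NFE2L3 at 22.9 and 12.4. In TPM both were thus under 2-fold. MAFF, a small MAF partner, had 1209, 602 and 579 counts, 2.96-fold (2.68 to 3.26) and 3.23-fold lower (2.92 to 3.57). CDKN1A, whose p21 product is known to bind NRF2, had 956, 411 and 1857 counts. It was 3.42-fold lower in adriamycin-resistant cells (3.05 to 3.85) and 1.26-fold higher in MM468/PR cells (1.16 to 1.36). The related factor NFE2L3 had 1264, 956 and 847 counts and was 1.95-fold (1.79 to 2.12) and 2.31-fold lower (2.12 to 2.52).

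Of 31 other NRF2 target genes, adriamycin-resistant cells had 7 (22.6%) past 2-fold upward and 3 (9.68%) downward. MM468/PR cells had 6 (19.4%) upward and 11 (35.5%) downward. Among those 11, IDH1 stood at 174 TPM in parental and 103 in MM468/PR cells, and FTH1 at 8873 and 4764. AKR1C2 stood at 156 and 91.7 TPM, and GSTM3 at 75.9 and 45.3. In TPM these genes were thus under 2-fold, and the rest of the 11 were past it. One of the rest, GSTA1, had only 16, 12 and 4 counts. GSTP1, a glutathione transferase, had 1160 counts in parental, 0 in adriamycin-resistant and 2434 in MM468/PR cells. Against a floor of 3 counts it was at least 569-fold lower in the adriamycin-resistant library, where its counting interval starts at 462-fold. AKR1B10, an aldo-keto reductase, had 326, 3913 and 129 counts, 8.15-fold higher in adriamycin-resistant cells (7.28 to 9.16) and 3.91-fold lower in MM468/PR cells (3.18 to 4.83). UGT1A6 had 50, 3602 and 1691 counts and shares exons with the other UGT1A genes, so its counts are uncertain, as are those of AKR1B10, which has a close paralog.

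Other glutathione cycle genes, of which 22 and 23 were compared, gave 0 upward and 2 (9.09%) downward in adriamycin-resistant cells, and 1 (4.35%) upward and 4 (17.4%) downward in MM468/PR cells. The 1 upward gene, OPLAH, had 0, 8 and 15 counts and was compared only through the library where it was high. SLC1A5, a glutamine transporter, had 12943, 11216 and 5678 counts and was 3.53-fold lower in MM468/PR cells (3.42 to 3.64). SLC1A4, a neutral amino acid transporter, had 2701, 843 and 1420 counts and was 4.72-fold (4.36 to 5.10) and 2.94-fold lower (2.76 to 3.14). GGT1, which cleaves extracellular glutathione, had 424, 317 and 159 counts and was 4.12-fold lower in MM468/PR cells (3.43 to 4.98). Of the other NADPH genes, 0 of 17 passed 2-fold in adriamycin-resistant cells, and MM468/PR cells had 2 (11.1%) upward and 3 (16.7%) downward of 18. One of the upward genes, ALDH1L1, had 0, 2 and 43 counts and was likewise compared only through MM468/PR cells. ALDH1L2, a mitochondrial folate enzyme that makes NADPH, had 749, 1923 and 213 counts, and was 5.44-fold lower in MM468/PR cells (4.67 to 6.37). RPIA, of the pentose phosphate pathway, had 592, 1603 and 1953 counts and was 2.13-fold higher there (1.94 to 2.34). IDH1, which makes NADPH in the cytosol, had 5971, 5066 and 4370 counts and a log2 fold change of -1.08 there.

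Among 26 genes of thiol and methionine repair and other defences, adriamycin-resistant cells had 2 (7.69%) upward and 2 downward, and MM468/PR cells 1 (3.85%) upward and 3 (11.5%) downward. AIFM2, which encodes the ferroptosis suppressor FSP1, had 543 counts in parental, 1602 in adriamycin-resistant and 110 in MM468/PR cells. It was 2.00-fold higher in the former (1.82 to 2.21) and 7.63-fold lower in the latter (6.21 to 9.46). SELENOP, a secreted selenium carrier, had 613, 2407 and 4594 counts and was 2.67-fold (2.44 to 2.92) and 4.84-fold higher (4.45 to 5.28). MSRB3, a methionine sulfoxide reductase, had 135, 50 and 153 counts and was 3.97-fold lower in adriamycin-resistant cells (2.85 to 5.61). Of 7 NADPH oxidase genes with enough counts, 2 went upward and 2 downward in adriamycin-resistant cells, and 2 upward and 1 downward in MM468/PR cells. NOXA1, an activator of NOX1, had 164, 463 and 1054 counts and was 1.92-fold (1.60 to 2.31) and 4.15-fold higher (3.52 to 4.93). NOX5, a calcium-regulated NADPH oxidase, was downward in MM468/PR cells with 11, 12 and 0 counts and was compared there only through the parental library.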

How the data were processed

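Macrogen Japan Corp. sequenced a single TruSeq Stranded mRNA library per line. The table deposited by the authors lists raw read counts, without normalization, for 46427 genes. The FPKM and TPM values in the same table were computed by the authors. The submitters' processing notes name Trimmomatic 0.39, HISAT2 2.2.1, StringTie 2.2.1 and GRCh38. How counts were made, the annotation release and the use of strand are not given in the sources used here.

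Libraries were compared 2 at a time in R 4.3.3 with edgeR 4.0.16, using TMM factors, a prior count of 0.125 and a minimum of 10 counts in 1 of the 2 libraries. Without replicates quasi-likelihood tests could not be fitted, and no p-value is given. Intervals of folds are exact binomial 95% intervals, and those of pair ratios exact conditional ones (scipy 1.17.1). Folds against 0 counts are bounds against 3 counts per library. Other settings tried were library size only, DESeq2 1.42.0 size factors, TMM over all 3 libraries, a prior count of 2, other count minimums, TPM with pseudocounts of 1 and 0.1, FPKM with a pseudocount of 1, and thresholds of 1.5-fold and 4-fold.

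The members and lists were chosen with earlier results of these data known. Some genes of the lists are not reported here. OPLAH, ALDH1L1 and NOX5 were named after their values were seen. The genes given with every library's counts by rule are NFE2L2, KEAP1, every member past 2-fold in a comparison, the most abundant member of each role, and up to 3 genes per list with at least 100 counts and the largest change past 2-fold. Other members are given mostly as log2 fold changes, and genes outside the rule were chosen after their values were seen. Positions and sequences are from RefSeq GRCh38.p14, where all 37 members were found by NCBI Gene ID. The table held 19 pseudogenes of members, with at most 7 counts each, and 16 members overlap another gene, 7 of them 1 with 100 or more counts. The code was run on simulated data with 200 changed genes per comparison, and recovered 100% of them in each of the 3 comparisons. These runs held 17600, 18338 and 18748 genes, with median absolute errors of 0.0376, 0.0346 and 0.0375 on the log2 scale. The order is adriamycin-resistant against parental, MM468/PR against parental and MM468/PR against adriamycin-resistant. The simulated counts had Poisson error only, and every planted change was well past 2-fold in a gene with at least 100 expected counts. Full recovery was thus all but fixed in advance. It checks the code, and neither replicate spread nor scaling where many genes differ.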

Additional observations from a re-analysis of the deposited data

Results flagged for a closer look

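With 100 or more counts in a library, 7 genes were at least 1.5-fold from parental in opposite directions in the 2 resistant lines, of 149 members and listed genes at that level (4.70%), beside 3.57% of the 13798 genes of the table. Among the members alone it was 1 of 34 (2.94%), below the share of all genes. This difference was not tested, since each line has 1 library and both were set against the same parental library. As log2 fold changes in adriamycin-resistant and then MM468/PR cells, the member HMOX1 had 2.13 and -0.93. AKR1B10, an aldo-keto reductase, had 3.03 and -1.97, and AIFM2, which encodes FSP1, had 1.00 and -2.93. The mitochondrial folate enzyme ALDH1L2 had 0.80 and -2.44, and the microsomal glutathione transferase MGST2 had 0.73 and -0.71. In the other direction, CTH, which makes cysteine from cystathionine, had -0.67 and 0.78, and BACH2, a repressor of the same DNA elements, had -0.65 and 0.66. BACH2 had 61, 57 and 149 counts, so it reached 100 only in MM468/PR cells. Its counting interval in adriamycin-resistant cells was 1.08-fold to 2.30-fold lower. These values are with TMM. In TPM, MGST2 stood at 58.4 in parental and 45.2 in MM468/PR cells, under 1.5-fold. BACH2 stood at 0.264 TPM in parental and 0.207 in adriamycin-resistant cells, also under 1.5-fold.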

How the results depend on the processing

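No paired analysis was possible because each line has a single library, and for the same reason none could be left out. Of 942 values of single members under the alternatives, 604 stayed within their 95% counting interval, 338 moved out of it and 0 of those past 2-fold changed sign. Signs turned for 21 pairs of a member and a comparison, all under 2-fold and 20 of them in the MM468/PR comparisons. Against parental, the 3 higher members of adriamycin-resistant cells (8.57%, beside 10.9% of all genes) became 6 at 1.5-fold (17.1%, beside 19.6%). The 0 lower (beside 11.4%) became 1 at 1.5-fold (2.86%, beside 19.9%). In MM468/PR against parental cells, the 2 higher (5.71%, beside 20.5%) became 1 with a minimum of 100 counts (2.94%, beside 12.5%). The number was also 1 with FPKM (2.86%, beside 7.19%) or at 4-fold (2.86%, beside 10.4%), and 4 at 1.5-fold (11.4%, beside 29.7%). The 7 lower (20%, beside 13.5% of all genes) became 2 with library size only (5.71%, beside 10.0%), 1 with TPM at either pseudocount or FPKM (2.86%, beside 5.52%, 8.27% and 4.62%), 3 with a minimum of 100 counts (8.82%, beside 11.5%), 15 at 1.5-fold (42.9%, beside 23.6%) and 0 at 4-fold (beside 4.57%). In MM468/PR against adriamycin-resistant cells, the 1 higher (2.86%, beside 19.4%) became 2 with library size only (5.71%, beside 24.5%) or no count minimum (5.56%, beside 25.7%). The number was also 2 with TPM at either pseudocount or FPKM (5.71%, beside 14.7%, 26.9% and 6.9%) or at 1.5-fold (5.71%, beside 29.2%). At 4-fold it was 0 (beside 9.07%). The 7 lower (20%, beside 14.0%) became 3 with library size only (8.57%, beside 9.81%), 2 with TPM at either pseudocount or FPKM (5.71%, beside 4.51%, 7.48% and 4.04%), 17 at 1.5-fold (48.6%, beside 24.8%) and 1 at 4-fold (2.86%, beside 4.34%). HMOX1 and TXNRD1 in adriamycin-resistant cells and TXN in both MM468/PR comparisons stayed past 2-fold under every scaling tried. GPX2, with 0 parental counts, was past 2-fold in counts but at 0.46 and 0.71 on the log2 scale in TPM with a pseudocount of 1. The promoter core was found in 8 members, and TGACTCAGC or TGAGTCAGC, which hold the AP-1 letters and of which only the first matches the core, in 4 (13.8%, beside 1.20% of genes): ME1, OSGIN1, PIR and SLC3A2. By window the latter share was 8.89% of the members' windows, beside 0.977% of all. Among list counts, 272 of 396 stayed within 1.5 times. Depth limits GPX2 and GPX3, both under 20 counts.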

Other observations

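Some genes that handle heme and iron were picked from the list of other NRF2 targets after their values were seen. FTL, the ferritin light chain, had 3603 counts in parental, 15116 in adriamycin-resistant and 13572 in MM468/PR cells, 2.85-fold (2.75 to 2.96) and 2.43-fold higher (2.35 to 2.53). FTH1, the heavy chain that oxidizes stored iron, had 157797, 171038 and 104388 counts, 1.36-fold (1.35 to 1.37) and 2.34-fold lower (2.32 to 2.36). The ferritin chains thus stood on opposite sides of parental in both lines. Both have many processed pseudogenes, so their counts are uncertain. BLVRA, which reduces biliverdin, had 837, 833 and 312 counts and was 4.15-fold lower in MM468/PR cells (3.64 to 4.74), while BLVRB, another biliverdin reductase, had 1477, 2424 and 1607 counts and was 1.42-fold lower there (1.32 to 1.53). SLC48A1, a heme transporter, had 2817, 2957 and 1070 counts and was 4.07-fold lower there (3.80 to 4.38). Intervals are exact binomial 95% intervals and cover counting error only.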
